A study of Mus musculus with 6 samples.

Results

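Expression of 8 sarcomeric myosin heavy chain genes was examined in C2C12 cells, an established mouse myoblast line that fuses into myotubes when serum is withdrawn, with and without the RNA-binding protein hnRNPA2B1. The genes were chosen by symbol, as *Myh1*, *Myh2*, *Myh3*, *Myh4*, *Myh6*, *Myh7*, *Myh7b* and *Myh8*, and are 8 of the 46078 genes in the count table. All 8 were among the 14828 genes that passed the filter on low counts. Libraries were made from ribosomal RNA-depleted total RNA of *Hnrnpa2b1* knockout (KO) and wild-type (WT) cells, 3 of each genotype, all taken after 2 days of differentiation. The knockout was made by CRISPR-Cas9 with a single guide RNA, and the study describes independent clonal KO and WT lines picked with cloning rings. The sources do not say which clone gave which library, so every p-value below measures the spread between these libraries, and the deletion and any difference between clones cannot be told apart. The comparison asks whether the myosin heavy chain program of differentiating myoblasts differed when hnRNPA2B1 was absent.

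Myosin heavy chain is the motor of the thick filament, and the isoform in a fiber sets how fast the fiber contracts. Developing and regenerating muscle first makes embryonic myosin (*Myh3*) and perinatal myosin (*Myh8*), then replaces them with the adult fast isoforms IIa (*Myh2*), IIx (*Myh1*) and IIb (*Myh4*) or the slow isoform (*Myh7*). *Myh6* encodes the alpha isoform of cardiac muscle, and *Myh7b* encodes an ancient slow-tonic isoform. The fast and developmental genes lie side by side in a cluster, *Myh6* and *Myh7* lie in tandem elsewhere, and *Myh7b* stands alone.

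In the deposited coordinates, which fit the mouse build GRCm38, the members in the cluster ran in the order *Myh3*, *Myh2*, *Myh1*, *Myh4*, *Myh8* on the plus strand of chromosome 11, from *Myh3* at chr11:67078300-67102291 to *Myh8* at chr11:67277124-67308634. The extraocular gene *Myh13*, which is not among the members, followed on the same strand at chr11:67321658-67371586. *Myh2* was placed at chr11:67171027-67197517, *Myh1* at chr11:67200052-67224575 and *Myh4* at chr11:67238029-67260446. *Myh6* (chr14:54941981-54966927) and *Myh7* (chr14:54970688-54994634) were on the minus strand of chromosome 14, and *Myh7b* (chr2:155611212-155634307) was on the plus strand of chromosome 2.

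The promoters of the 4 neighbouring genes *Myh2*, *Myh1*, *Myh4* and *Myh8* are shown because they carried a common sequence in the RefSeq windows (GRCm38.p6, from 250 bases before to 50 bases after the start site). Each line gives 134 bases, with the 9-base and 14-base stretches common to all 4 windows in capitals, and a base's position is counted from the start site as 0.
*Myh2*, chr11:67170842-67170975: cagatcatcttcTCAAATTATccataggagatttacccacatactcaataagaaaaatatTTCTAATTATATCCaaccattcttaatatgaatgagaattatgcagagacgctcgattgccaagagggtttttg
*Myh1*, chr11:67199882-67200015: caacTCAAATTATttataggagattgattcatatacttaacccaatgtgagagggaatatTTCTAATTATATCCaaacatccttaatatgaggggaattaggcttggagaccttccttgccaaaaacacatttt
*Myh4*, chr11:67237594-67237727: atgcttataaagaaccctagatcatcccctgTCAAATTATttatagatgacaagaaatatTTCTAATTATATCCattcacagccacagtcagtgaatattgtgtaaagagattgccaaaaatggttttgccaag
*Myh8*, chr11:67277010-67277143: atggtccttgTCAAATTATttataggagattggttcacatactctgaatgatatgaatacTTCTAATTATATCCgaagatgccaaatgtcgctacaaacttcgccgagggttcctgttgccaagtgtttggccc
The 14-base stretch TTCTAATTATATCC began at -125 in *Myh2*, -160 in *Myh1*, -158 in *Myh4* and -54 in *Myh8*. It was in 0 of the 32847 other promoter windows on either strand, and the 9-base stretch TCAAATTAT was in 55 of them (0.167%). Both stretches were found by searching these 4 windows for common runs, so they only describe these windows, and binding to them was not tested. The windows of *Myh3*, *Myh6*, *Myh7* and *Myh7b* held neither.

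Known muscle motifs were also searched in the windows, on both strands unless stated. A MEF2 site was matched in *Myh1*, *Myh4* and *Myh8* and in 1.86% of all 32851 windows, and in each of the 3 genes it overlapped the 9-base stretch. The E-box CANNTG was matched in every gene but *Myh2* and *Myh1*, but also in 72.3% of all windows. MCAT (CATTCC) was matched in *Myh1*, *Myh4*, *Myh6* and 1 of the 2 windows listed for *Myh7*, against 14.7% of all windows, and a CArG box was matched in *Myh4* alone, against 1.63%. TATAAA on the gene's strand was matched in *Myh3*, *Myh2*, *Myh1*, *Myh4* and *Myh6*, against 8.32% of all windows, and the MEF3 letters TCAGGTT, in 4.07% of all windows, were matched in none of the 8 genes. The window of *Myh7b*, at chr2:155610993-155611292, is shown whole because this gene differed most reproducibly between genotypes, and apart from 2 E-boxes it held none of the motifs searched.
*Myh7b*: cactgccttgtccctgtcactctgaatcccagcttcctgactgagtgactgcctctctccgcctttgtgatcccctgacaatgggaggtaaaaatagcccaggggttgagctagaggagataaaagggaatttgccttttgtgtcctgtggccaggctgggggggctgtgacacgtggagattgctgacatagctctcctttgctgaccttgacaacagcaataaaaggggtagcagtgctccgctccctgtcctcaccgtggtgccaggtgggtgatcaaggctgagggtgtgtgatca

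Because the members are paralogs, their coding sequences were compared to show where reads could be assigned to more than 1 gene. Pairwise identity ran from 68.4% (*Myh1* and *Myh7b*) to 91.5% (*Myh7* and *Myh6*), and *Myh2* and *Myh1* were 91.0% identical. The 60 coding bases that differed most within each of these close pairs are printed with the differing bases in capitals, since reads over them separate the paralogs. *Myh7* bases 3220 to 3279 and *Myh6* bases 3226 to 3285 differed at 27 positions.
*Myh7*: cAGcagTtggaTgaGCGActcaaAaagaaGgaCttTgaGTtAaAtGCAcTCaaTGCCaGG
*Myh6*: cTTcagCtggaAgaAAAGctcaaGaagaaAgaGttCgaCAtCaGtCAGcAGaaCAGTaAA
*Myh1* and *Myh2* differed at 21 positions over 60 bases from base 149 of each coding sequence.
*Myh1*: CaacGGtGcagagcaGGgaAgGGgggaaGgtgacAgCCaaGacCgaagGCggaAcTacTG
*Myh2*: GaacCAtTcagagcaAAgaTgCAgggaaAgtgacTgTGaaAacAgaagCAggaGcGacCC
Some stretches could not be separated by short reads: *Myh7* and *Myh6* had an identical run of 245 bases and *Myh1* and *Myh2* one of 268 bases. Of all 150-base windows of the longest coding transcript, the share found letter for letter in another myosin heavy chain gene was 5.43% for *Myh7*, 5.63% for *Myh6*, 2.06% for *Myh2*, 2.49% for *Myh1*, 1.6% for *Myh8*, 0.52% for *Myh4*, 0.31% for *Myh3* and 0 for *Myh7b*. How the counting treated reads that fit 2 genes is not given in the sources used here, so the values of *Myh6* against *Myh7*, and of *Myh2* against *Myh1*, are uncertain to that extent, while *Myh7b* had no such window.

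The libraries held 33605258 to 40558740 counted reads, and the members had from 76 reads (*Myh6*, KO library 2) to 215638 reads (*Myh3*, WT library 3). *Hnrnpa2b1* itself had 159, 195 and 249 CPM (reads scaled to a fixed library total) in the KO libraries and 225, 229 and 252 CPM in the WT libraries. The groups overlapped, with a log2 fold change of -0.23 (SE 0.18, adjusted p = 0.381, edgeR), and a gene disrupted by a small insertion or deletion may keep its RNA, so this level does not check the labels. The myoblast and myotube markers *Des*, *Myog*, *Acta1*, *Ckm*, *Tnnt3*, *Tnnt1*, *Actn2*, *Myod1*, *Mymk* and *Mymx* (the last pair under the older symbols *Tmem8c* and *Gm7325*) were all above 1 TPM, a level scaled for both transcript length and depth, in every library. KO library 1 stood apart from the other KO libraries in most members, as the values show, so the edgeR result of each member is also given without it. This library was singled out by the values of these same genes, so the results without it are a description and not separate support.

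All 8 genes had lower fitted levels in KO than in WT, against 47.7% of all tested genes, and their median log2 fold change was -1.53 against 0.03 for all tested genes. In this test (edgeR's quasi-likelihood test on counts, Benjamini-Hochberg adjustment over all tested genes, threshold 0.05) only *Myh7b* was called lower, which is 1 of 8 genes where 10.6% of all tested genes were called lower, a share close to that background. The highest KO value was below the lowest WT value for 5 of the 8 genes (*Myh3*, *Myh8*, *Myh7*, *Myh6* and *Myh7b*), and this held for 21.6% of all tested genes. With limma on log2(TPM + 1) the same 5 genes were called lower, where 11.8% of the genes tested on that scale were. Fewer cells that make these myosins and less myosin RNA in each cell cannot be told apart in these bulk libraries.

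**Figure D1:**
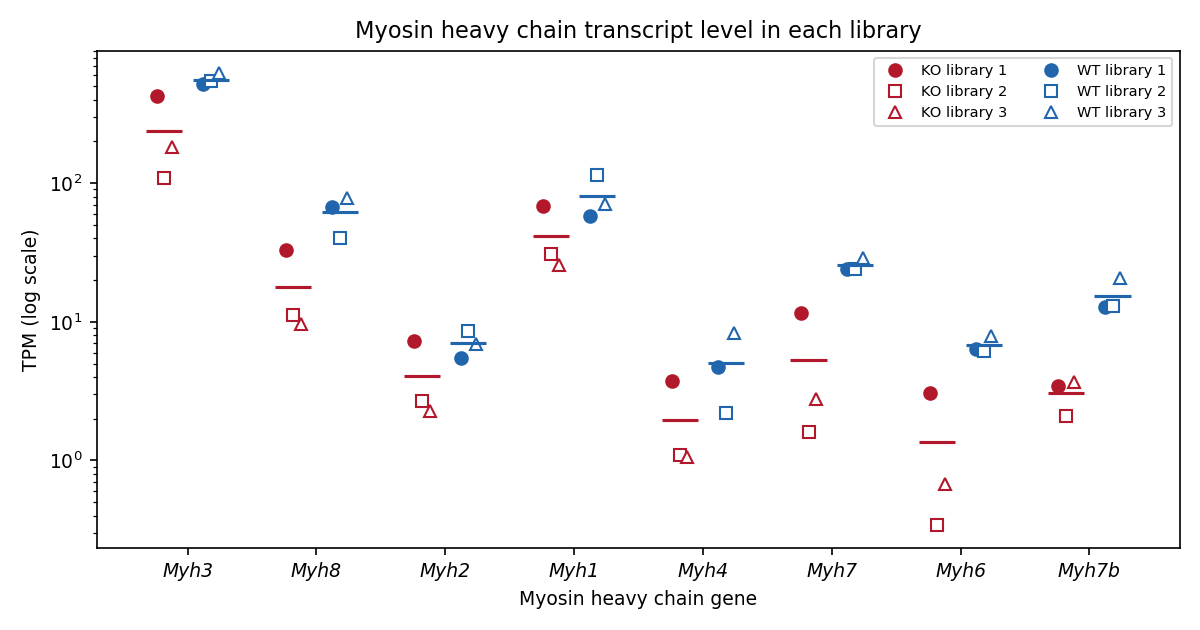
TPM (log axis) of the 8 genes in each of the 3 KO libraries (red) and 3 WT libraries (blue); each symbol is a library and each bar the group mean. KO library 1 (filled red circle) lies near the WT libraries for *Myh3*, *Myh2*, *Myh1* and *Myh4*, and all 3 KO libraries lie below the WT libraries for *Myh3*, *Myh8*, *Myh7*, *Myh6* and *Myh7b*.

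*Myh3*, the embryonic isoform, had 4146, 1007 and 1423 CPM in KO libraries 1 to 3 and 4474, 4589 and 5811 CPM in the WT libraries. All KO libraries were lower than all WT libraries, but KO library 1 was only just below them and the others were far below. The log2 fold change of -1.18 (SE 0.51, adjusted p = 0.126, edgeR) did not pass the test on counts, and the difference on the log2(TPM + 1) scale of -1.44 (SE 0.41, adjusted p = 0.0391, limma) did. Without KO library 1 the edgeR value was -2.04 (adjusted p = 0.00145), and without any 1 of the other 5 libraries the TPM call was lost (adjusted p from 0.0693 to 0.124), as it was with no filter on low TPM (0.213) and with a pseudocount of 0.1 (0.0555).

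*Myh8*, the perinatal isoform, had 304, 98.7 and 71.1 CPM in KO and 556, 319 and 698 CPM in WT. KO library 1 and WT library 2 came close to each other, and the groups did not overlap. The log2 fold change was -1.73 (SE 0.55, adjusted p = 0.0562, edgeR) on counts and -1.88 (SE 0.42, adjusted p = 0.0180, limma) on TPM. Without KO library 1 the count value was -2.63 (adjusted p = 0.00135). The TPM call was lost without KO library 3 (adjusted p = 0.0540), WT library 1 (0.0909) or WT library 3 (0.0736) and with no filter on low TPM (0.142).

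The adult fast isoforms overlapped between genotypes. *Myh2* (IIa) had 32.5, 9.32 and 9.23 CPM in KO and 23.7, 30.6 and 20.4 CPM in WT, so that the other KO libraries were the lowest and KO library 1 was the highest of all in CPM, though in TPM it (7.26) was below WT library 2 (8.65). *Myh1* (IIx), the most abundant of the adult isoforms, had 545, 237 and 167 CPM in KO and 410, 797 and 553 CPM in WT, with KO library 1 inside the WT range. *Myh4* (IIb) had 20.4, 6.27 and 5.03 CPM in KO and 20.6, 5.73 and 52.6 CPM in WT, where WT library 2 was as low as the lower KO libraries in CPM but not in TPM (2.19 against 1.10 and 1.06). The log2 fold changes were -0.55 for *Myh2* (SE 0.48, adjusted p = 0.430), -0.89 for *Myh1* (SE 0.44, adjusted p = 0.174) and -1.32 for *Myh4* (SE 0.79, adjusted p = 0.252), and none passed edgeR on counts or limma on TPM. Without KO library 1, *Myh2* (-1.43, adjusted p = 0.00221) and *Myh1* (-1.54, adjusted p = 0.00709) passed the edgeR test and *Myh4* (-2.23, adjusted p = 0.0556) did not. *Myh2* moved the other way, to -0.26 without KO library 2 and -0.25 without KO library 3, as did *Myh1*, to -0.58 without KO library 3. These values did not pass the edgeR test. *Myh4* was at -0.35 (adjusted p = 0.775, edgeR) without WT library 3, which held its highest value. On TPM, *Myh4* passed limma without KO library 1 (adjusted p = 0.0202) or WT library 2 (0.0473), and with the replicate number as a block (0.0400).

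*Myh7*, the slow isoform, had 81.1, 11.4 and 16.0 CPM in KO and 143, 136 and 191 CPM in WT. All KO libraries were lower, KO libraries 2 and 3 by a wide gap. The log2 fold change was -2.12 on counts (SE 0.68, adjusted p = 0.0586, edgeR) and -2.42 on TPM (SE 0.48, adjusted p = 0.0116, limma). The TPM call was lost without WT library 1 (adjusted p = 0.0591) or WT library 3 (0.0529) and with no filter (0.115).

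*Myh6*, the cardiac alpha isoform, had 16.1, 1.74 and 2.86 CPM in KO and 29.6, 30.1 and 39.6 CPM in WT. It followed the order of *Myh7* over the KO libraries, and the groups did not overlap. The log2 fold change was -2.27 on counts (SE 0.74, adjusted p = 0.0607, edgeR) and -1.89 on TPM (SE 0.36, adjusted p = 0.00957, limma), and the TPM call was lost without WT library 1 (adjusted p = 0.0516) and with no filter (0.0993). Without KO library 1 both genes passed the edgeR test, at -3.52 for *Myh7* (adjusted p = 7.7e-05) and -3.86 for *Myh6* (adjusted p = 0.000108). Among the cardiomyocyte markers, *Nppb* and *Myl7* were at 0 TPM in all libraries, and *Nppa* and *Ryr2* were at or near 0. The 7 markers summed to between 5.46 and 7.62 TPM in KO and between 8.21 and 19.96 TPM in WT. *Tnni3* had 3.56, 4.49 and 3.21 TPM in KO and 9.18, 2.75 and 14 TPM in WT, and overlapped (adjusted p = 0.135, edgeR). *Nkx2-5* overlapped too (adjusted p = 0.764, edgeR). Of 3 tested markers 1 was called lower, *Gata4* (-1.60, adjusted p = 0.00635, edgeR), where 10.6% of all tested genes were.

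*Myh7b*, the slow-tonic isoform, fell in KO under both tests. It had 23.5, 14.6 and 19.7 CPM in KO and 71.8, 73.3 and 121 CPM in WT, a fitted level 4.62-fold higher in WT. Here the KO libraries lay close together, KO library 1 was the highest of them in CPM but between the others in TPM (3.44 against 2.10 and 3.70), and all were well below the WT libraries. The log2 fold change was -2.21 (SE 0.26, adjusted p = 0.00257, edgeR) on counts and -2.002 (SE 0.23, adjusted p = 0.00139, limma) on TPM, and without KO library 1 it was -2.38 (adjusted p = 0.000809, edgeR). It was the only member called in each of the 11 alternatives tried on counts and each of the 9 on TPM.

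Measured from the WT mean of log2(CPM + 0.5), KO library 1 deviated by between -0.25 and 0.40 for *Myh3*, *Myh1*, *Myh4* and *Myh2*, by -0.71 for *Myh8*, by -0.93 for *Myh7*, by -1.0025 for *Myh6* and by -1.85 for *Myh7b*. KO libraries 2 and 3 deviated by between -1.25 (*Myh1*) and -3.89 (*Myh6*) for every gene. Without KO library 1, 7 of the 8 genes (all but *Myh4*) were called lower in edgeR, where 15.1% of all tested genes were. Leaving out a library that lay nearest to WT in these genes widens their differences, so this count is no separate support. Without any other single library, only *Myh7b* was called in edgeR. An exact two-sided permutation test of 3 libraries against 3 gave p = 0.1, the smallest it allows, for the 5 genes without overlap, p = 0.2 for *Myh1* and p = 0.4 for *Myh2* and *Myh4*.

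**Figure D2:**
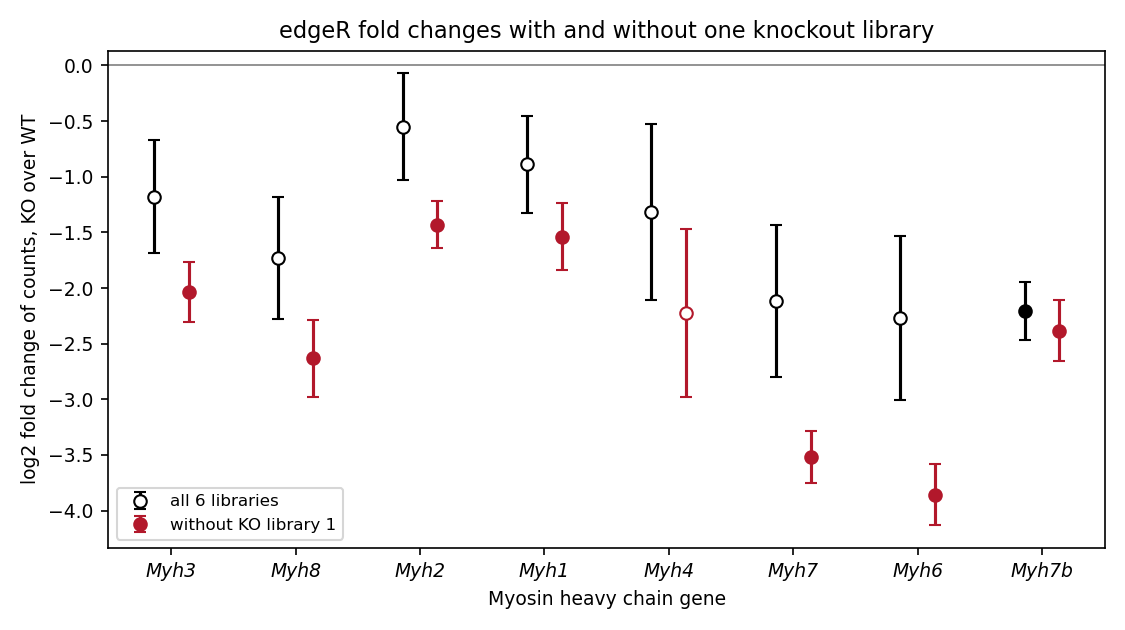
edgeR log2 fold change of counts, KO over WT, for each gene with all 6 libraries (black) and without KO library 1 (red). Points are estimates, bars are ± 1 SE, and filled points have an adjusted p under 0.05; *Myh7b* is filled in both, at -2.21 and -2.38.

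Levels were compared between genes in TPM, which corrects for length. In WT the order was *Myh3* (559 ± 54.1 TPM, SD, n = 3), *Myh1* (80.8 ± 29.3), *Myh8* (61.5 ± 19.4), *Myh7* (25.8 ± 2.84), *Myh7b* (15.4 ± 4.44), *Myh2* (6.99 ± 1.60), *Myh6* (6.80 ± 0.907) and *Myh4* (5.06 ± 3.06). *Myh1* and *Myh8* overlapped, as did *Myh2* and *Myh6*, and *Myh6* and *Myh4*, and the other neighbours in the order were separate in the 3 WT libraries. In KO the order was *Myh3* (240 ± 166 TPM, SD, n = 3), *Myh1* (41.9 ± 23.6), *Myh8* (17.9 ± 13.0), *Myh7* (5.33 ± 5.45), *Myh2* (4.07 ± 2.77), *Myh7b* (3.08 ± 0.859), *Myh4* (1.97 ± 1.55) and *Myh6* (1.36 ± 1.48). Only *Myh3* and *Myh1* were separate neighbours in KO, and *Myh7b* was the member with the smallest SD relative to its mean there.

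The 8 genes summed to 557, 159 and 229 TPM in the KO libraries and 693, 749 and 840 TPM in the WT libraries, a WT mean 2.41-fold the KO mean (log2 of KO over WT -1.27, or -1.97 without KO library 1). KO library 1 was again the nearest to WT and no KO library reached the WT range. The members took 0.507%, 0.149% and 0.182% of counted reads in KO and 0.548%, 0.584% and 0.710% in WT. The non-muscle heavy chains *Myh9*, *Myh10* and *Myh14*, which act in the cytoskeleton of most cells, summed to 133, 131 and 234 TPM in KO and 120, 201 and 101 TPM in WT, and these overlapped. The 8 sarcomeric genes therefore made up 80.7%, 54.8% and 49.4% of these class II heavy chain transcripts in KO and 85.3%, 78.9% and 89.2% in WT.

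Within the summed TPM of the 8 genes, *Myh3* took 75.0 ± 5.82% in KO and 73.4 ± 1.03% in WT (SD, n = 3), so the embryonic isoform dominated both genotypes by about the same share. *Myh1* took 14.4 ± 4.44% in KO and 10.6 ± 3.92% in WT, and *Myh8* took 5.72 ± 1.42% and 8.07 ± 2.39%, with overlap for both. The shares of the 3 genes outside the cluster did not overlap between genotypes. *Myh7* took 2.08%, 1.01% and 1.22% in KO against 3.22% to 3.49% in WT, *Myh6* took 0.548%, 0.214% and 0.294% against 0.828% to 0.933%, and *Myh7b* took 0.617%, 1.32% and 1.61% against 1.73% to 2.45%. These shares were lower in all KO libraries, KO library 1 included. As a share of summed CPM, *Myh2* did not overlap either and went the other way. It took 0.629%, 0.672% and 0.538% in KO and 0.414%, 0.512% and 0.272% in WT, but its TPM shares overlapped. No test was made on the shares.

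**Figure D3:**
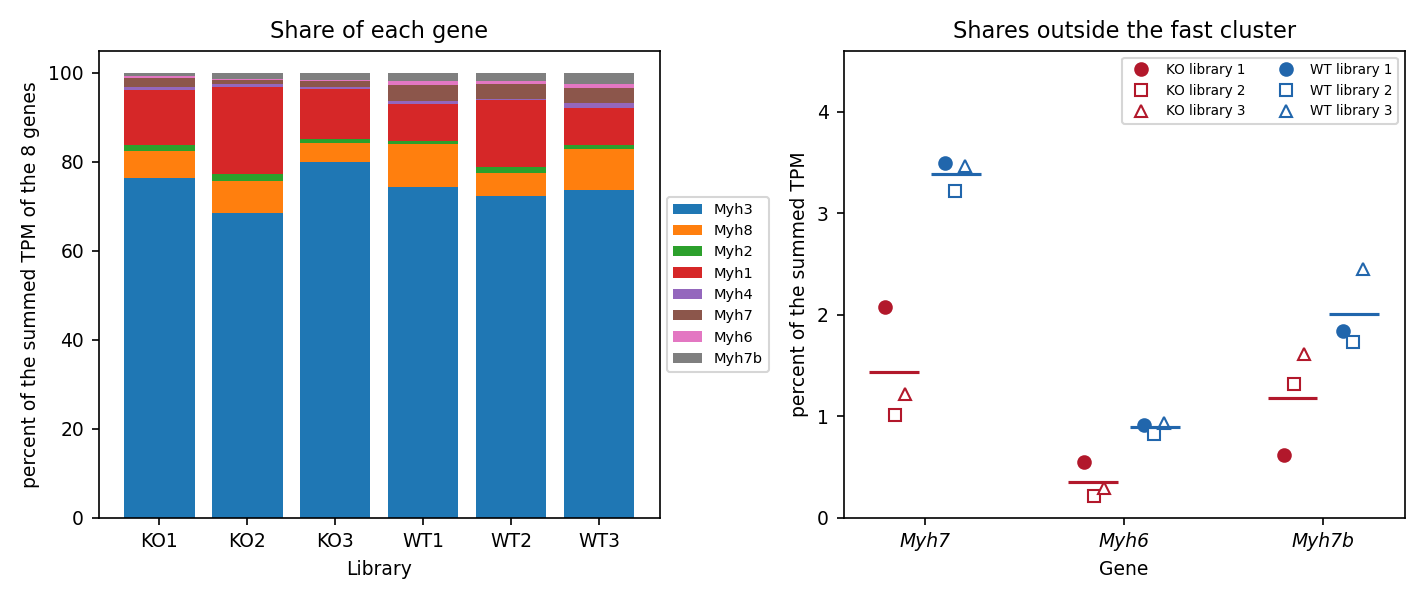
Left, percent of the summed TPM of the 8 genes contributed by each gene in each library (stacked bars). Right, the same percent for *Myh7*, *Myh6* and *Myh7b*, each symbol a library and each bar the group mean; *Myh3* takes 68.6% to 79.9% of every bar, and the KO values at right lie below all WT values.

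Ratios within a library do not depend on its depth. The TPM ratio of *Myh7* to *Myh6* was 3.79, 4.73 and 4.15 in KO and 3.82, 3.88 and 3.71 in WT, so the tandem pair kept nearly the same proportion while both levels varied widely, and the part that shared reads play in this was not tested. The ratio of *Myh1* to *Myh7*, fast to slow, was 5.95, 19.2 and 9.23 in KO and 2.38, 4.72 and 2.44 in WT, and every KO library was higher. The ratio of *Myh7* to *Myh7b* was 3.37 in KO library 1, above the WT range of 1.41 to 1.90, and 0.769 and 0.755 in the other KO libraries, below it. *Myh7b* therefore did not follow *Myh7* over the KO libraries. The ratio of *Myh1* to *Myh2* stayed between 9.49 and 13.1 in all 6 libraries. The ratios of *Myh3* to *Myh8*, *Myh3* to *Myh1*, *Myh1* to *Myh8* and *Myh1* to *Myh4* overlapped between genotypes. Of the ratios taken, only that of *Myh1* to *Myh7* did not overlap, and no test was made on it.

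The introns of 3 members hold microRNA genes that are named in muscle as a group. The mature sequences (RefSeq, GRCm38.p6) are shown because 2 of the 3 have the same seed, which is in capitals (bases 2 to 8), and the other shares 6 of its 7 bases.
miR-208a-3p, in intron 29 of *Myh6*, chr14:54949072-54949093: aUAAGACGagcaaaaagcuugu
miR-208b-3p, in intron 31 of *Myh7*, chr14:54975710-54975731: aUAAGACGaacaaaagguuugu
miR-499-5p, in intron 19 of *Myh7b*, chr2:155622893-155622913: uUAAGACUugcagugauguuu
Introns were numbered in the GENCODE M21 transcript of the host with the most exons. The hairpin genes had 0 reads in every KO library, and in WT 2 reads for *Mir208a* and 1 for *Mir499*, both in WT library 3, and 3 for *Mir208b* in WT library 2. At this depth no difference was detectable, and these libraries were not made to capture mature microRNAs. *Mhrt*, annotated at chr14:54968678-54974349 on the strand opposite to *Myh7* and overlapping it, had 1, 0 and 0 reads in KO and 3, 6 and 6 in WT, and strand use in counting was not stated, so these reads cannot be told apart from those of an overlapping gene.

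Other genes of the 3 loci gave few reads. Between *Myh3* and *Myh8* on chromosome 11, *2310065F04Rik*, *9430073C21Rik* and *Gm12300* passed the filter, with log2 fold changes of -0.69, 0.38 and -0.14 (adjusted p = 0.352, 0.618 and 0.895, edgeR). All overlapped between genotypes, and each had between 5 and 63 reads in a library. *Mir6923*, inside *Myh3*, had 0 reads in every library though the TPM files list it at 0.0959 to 0.743 in KO and 1.13 to 1.30 in WT, and within the *Myh6* and *Myh7* pair *Gm29015* had 0 reads and *Gm17428* had 3, all in KO library 1. Over 5 Mb on either side of the cluster, 150 other tested genes had a median log2 fold change of -0.16, and 63.3% had lower levels in KO, against 47.7% of all tested genes. Of these 150 neighbours 33 were called lower and 8 higher in edgeR, where 10.6% and 12.1% of all tested genes were. The same flanks held 109 genes with a median of 0.16 around *Myh6* and *Myh7* (7 called lower, 14 higher), and 120 genes with a median of 0.04 around *Myh7b* (5 lower, 16 higher).

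The genes whose log2 CPM ran most like each member over the 6 libraries were listed as a description, with no p, and the 6 points share genotype and library. *Myh6* and *Myh7* were each other's nearest among 8980 candidates (r = 0.9996), followed in both by *Robo2* and *Klhl12*. The nearest were *Rcn2*, *Pkhd1* and *Myl4* for *Myh3* (r from 0.993 to 0.996), *Acsl6*, *Stim1* and *Slc11a2* for *Myh8* (0.997 to 0.999), and *Slco5a1*, *Cnr1* and *Tmem161b* for *Myh7b* (0.989 to 0.990). They were *Mid1ip1*, *H2-K1* and *Mgea5* for *Myh2* (0.989 to 0.994), *Vwa9*, *Adamts14* and *Lgals3bp* for *Myh1* (0.987 to 0.991), and *Blcap*, *Cisd3* and *Ndufaf1* for *Myh4* (0.977 to 0.982). No member other than *Myh6* and *Myh7* had another member among its 3 nearest.

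Other class II heavy chains did not pass the test: of 6 listed, 5 were tested and 0 were called by edgeR or by DESeq2, and 0 had an unadjusted p under 0.05, where 10.6% of all tested genes were called lower, 12.1% higher and 39.0% had such a p. *Myh9*, the main non-muscle isoform, had 127, 123 and 225 TPM in KO and 112, 189 and 94.6 TPM in WT (log2 fold change 0.24, adjusted p = 0.571, edgeR). *Myh10* (-0.20), the smooth muscle isoform *Myh11* (0.45), the extraocular isoform *Myh13* (0.51, but -0.42 on log2(TPM + 1)) and *Myh14* (0.76) had adjusted p-values from 0.347 to 0.515 (edgeR). *Myh14* had at most 19 reads in a library, *Myh11* at most 31 and *Myh13* at most 67, so their fold changes and the missing calls rest on few reads. *Myh15* was listed at 0 TPM in every library.

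Genes that build or regulate the thick filament were read from the same edgeR fit. Of 10 myosin light chains tested, 1 fell and 1 rose, where 10.6% of all tested genes were called lower and 12.1% higher. *Myl1*, the fast essential light chain, fell from 2026, 1114 and 1562 TPM in WT to 553, 155 and 121 TPM in KO (log2 fold change -2.39, SE 0.61, adjusted p = 0.0297). *Myl2*, the regulatory light chain of slow and ventricular muscle, rose from 1.28, 0.882 and 1.34 TPM to 79.4, 3.71 and 14.4 TPM (4.77, SE 1.09, adjusted p = 0.0204), with KO library 1 the highest. Thus *Myl2* and its slow heavy chain partner *Myh7* had fold changes of opposite sign. Without KO library 1 *Myl2* was at 2.74 (adjusted p = 0.00465) and *Myl1* at -3.47 (adjusted p = 0.000366), both still called. The *Myl2* call was lost without any 1 WT library (adjusted p from 0.0655 to 0.0880), and that of *Myl1* without KO library 2, KO library 3, WT library 1 or WT library 3 (0.0616 to 0.102). The number of light chains called was 6 without KO library 1, 1 without KO library 2, KO library 3 or WT library 2, and 0 without WT library 1 or 3. Calls over all genes moved too, from 22.7% of genes tested to 30.6% without KO library 1, 17.7% without KO library 2, 13.9% without KO library 3, 6.01% without WT library 1, 13.6% without WT library 2 and 8.43% without WT library 3, and the counts of the lists below are to be read beside these shares.

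Of 12 genes for myosin folding and turnover, 4 fell and 1 rose (10.6% and 12.1% of all tested genes). *Unc45b* (-0.93, adjusted p = 0.0275), the myosin chaperone of striated muscle, fell from 44.8, 29.7 and 39.0 TPM in WT to 22.4, 15.3 and 17.6 TPM in KO. *Smyd1* (-1.54, adjusted p = 0.00790), a methyltransferase needed for thick filament assembly, and the ubiquitin ligases *Trim55* (-1.76, adjusted p = 0.00996) and *Fbxo32* (-0.98, adjusted p = 0.0169) also fell in edgeR. *Hsp90aa1* (0.96, adjusted p = 0.00519), the cytosolic chaperone, rose from 80.2, 86.9 and 72.2 TPM to 136, 150 and 195 TPM. *Unc45b* was no longer called without KO library 2, KO library 3, WT library 1 or WT library 3 (adjusted p from 0.0685 to 0.110), nor *Fbxo32* without KO library 3, WT library 1 or WT library 3 (0.0517 to 0.0759). The number called was 8 without KO library 1 and 3 without KO library 3, WT library 1 or WT library 3.

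Of 10 thick filament and M-band partners, 2 fell and 0 rose (10.6% and 12.1% of all tested genes). *Mybpc1*, slow myosin-binding protein C, fell from 52.8, 32.6 and 45.7 TPM in WT to 7.78, 4.35 and 8.95 TPM in KO (-2.65, SE 0.29, adjusted p = 0.00205, edgeR). *Myom2*, a myomesin of the M-band, fell from 409, 380 and 394 TPM to 240, 96.8 and 129 TPM (-1.31, SE 0.38, adjusted p = 0.0419), and was called only with all libraries or without KO library 1. The number called was 6 without KO library 1 and 1 without any other single library.

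Of 30 regulators tested, 9 fell and 3 rose, against 10.6% and 12.1% of all tested genes. The largest falls were in *Hdac9* (-5.10, adjusted p = 0.000390), a repressor of MEF2, *Mef2c* (-4.40, adjusted p = 0.0169), a MEF2 factor of muscle genes, *Ppargc1a* (-4.37, adjusted p = 0.000728), a coactivator linked to slow oxidative fibers, and *Myf6* (-3.58, adjusted p = 0.0162), a late myogenic factor. *Mef2c* had 12.7, 23.7 and 24.7 TPM in WT and 2.31, 0.382 and 0.252 TPM in KO, with KO library 1 the highest of the KO libraries. *Ppargc1a* had 5.06, 2.70 and 4.62 TPM in WT and 0.205, 0.145 and 0.119 TPM in KO, so KO library 1 was not near WT there. *Prox1* (2.85, adjusted p = 0.00838), linked to slow fibers, and the early myogenic factor *Myod1* (0.99, adjusted p = 0.0141) were among those that rose in edgeR. *Prox1* was below 1 TPM in every library and had 22, 10 and 45 reads in WT. In KO, *Hdac9* had 11, 17 and 9 reads and *Myf6* had 15, 3 and 2. The sizes of these 3 fold changes therefore rest on few reads. *Mef2c* was at -6.35 and *Myf6* at -5.08 without KO library 1. Calls were lost for *Mef2c* without WT library 3 (adjusted p = 0.0556), for *Myf6* and *Myod1* without WT library 1 or WT library 3 (0.0573 to 0.0789), and for *Prox1* without WT library 1 (0.0515). The number called was 14 without KO library 1 and 5 without WT library 1 or WT library 3.

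**Figure D4:**
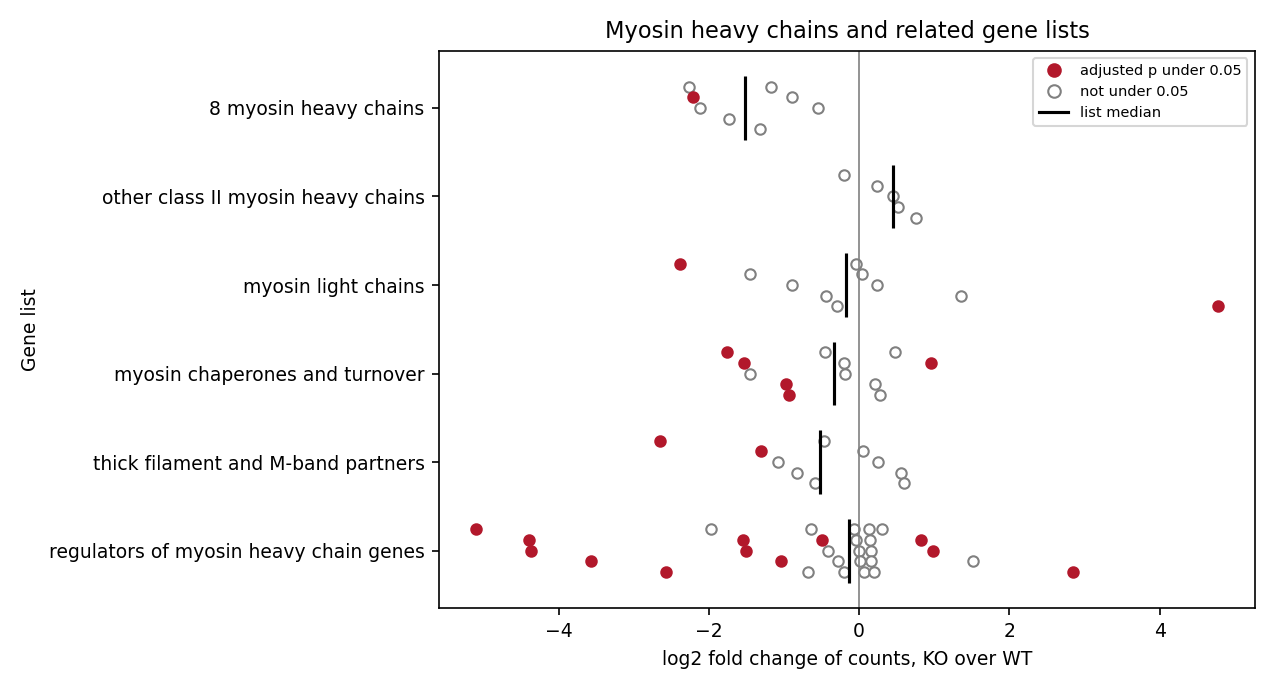
edgeR log2 fold change of counts, KO over WT, for every tested gene of the 6 lists; red points have an adjusted p under 0.05 and the black bar is the list median. All 8 myosin heavy chains lie below 0 (median -1.53), while the other lists have members on both sides.

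Markers of other cell states were read beside the members. The satellite or reserve cell markers *Pax7*, *Cd34* and *Sdc4* rose and *Myf5* fell, where 12.1% of all tested genes were called higher and 10.6% lower, and *Vcam1* did not pass (adjusted p = 0.0533, edgeR), and the 5 summed to 86.6, 130 and 83.5 TPM in KO and between 46.4 and 53.3 TPM in WT, so that KO library 1 was raised as much as KO library 3. The 8 proliferation markers summed to 37.4, 80.1 and 87.8 TPM in KO and between 46.8 and 57.5 TPM in WT, with 0 called, so the KO libraries with the lowest myosin levels had the highest sums and KO library 1 the lowest. The 10 myoblast and myotube markers summed to 7551, 3612 and 3577 TPM in KO and between 4521 and 6162 TPM in WT, with *Actn2*, the Z-disc actinin, falling (-2.94, adjusted p = 0.00212), *Myod1* rising and 8 not passing. *Myog*, the factor that marks entry into differentiation, had 696, 661 and 513 TPM in KO and 673, 641 and 526 TPM in WT (0.06, adjusted p = 0.863). The summed levels of smooth muscle markers (1349 to 1670 TPM in KO, 1489 to 1864 in WT), fibroblast markers (149 to 429 and 260 to 360) and adipocyte markers (3.52 to 4.33 and 3.74 to 5.96) overlapped between genotypes, and 1 of 6 (*Lmod1*, lower, -1.27), 1 of 4 (*Pdgfra*, higher, 1.17) and 0 of 1 of their tested genes were called. The part of these cell states in the myosin differences was not tested.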

How the data were processed

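The members and the gene lists were chosen with earlier results of these data known. Per the labels and the study's methods, the authors trimmed paired reads (Trim Galore), aligned them with STAR and deposited gene counts from featureCounts and TPM values from StringTie for each of 6 libraries; tool versions, strand use and the treatment of reads that fit 2 genes are not given in the sources used here. The named builds differ, but the deposited spans of 83.2% of 45137 genes equal those of GENCODE M21 on GRCm38. The deposited counts were tested with edgeR 4.0.16 (R 4.3.3; TMM, filterByExpr, quasi-likelihood, genotype only, 3 KO against 3 WT). The deposited TPM values, summed over rows of 1 gene, were tested with limma 3.58.1 on log2(TPM + 1) where at least 3 libraries reached 1 TPM. CPM uses TMM-scaled totals (factors 0.949 to 1.08). Fold changes of TPM understate those of low genes. The scripts were tested on simulated counts. Alternatives were DESeq2 1.42.0, other normalizations, no filter, a pseudocount of 0.1, a replicate block and leaving out each library. All members were named, as were all 6 other class II heavy chains, up to 4 called genes per list and direction, the 3 nearest genes by r (mean log2 CPM of at least 3) and all genes inside the loci. Replicate libraries differed beyond sampling noise (chi-square per degree of freedom 51.8 to 190). Promoters and microRNAs are from RefSeq. Coding sequences, aligned with Biopython, took the place of proteins, for which no table was used here. The values of 1 gene of the regulator list are not reported here.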

Additional observations from a re-analysis of the deposited data

How the results depend on the processing

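All 8 members kept a negative fold change in all 11 alternatives on counts and all 9 on TPM. On counts, 1 member was called, and the number was 2 with DESeq2 (*Myh3*, *Myh7b*) and 2 with library totals alone (*Myh8*, *Myh7b*). It was 7 with no filter on low counts and 1 to 7 when 1 library was left out, the 7 being without KO library 1. Of all genes tested on counts, 22.7% were called, 23.9% with DESeq2, 23.4% with library totals alone and 15.0% with no filter. The share was 30.6% without KO library 1 and between 6.01% and 17.7% without any other single library. On TPM, 5 were called, and the number was 4 with a pseudocount of 0.1 (*Myh3* lost) and 1 with no filter. With 1 library left out, it was 8 without KO library 1, 4 without KO library 2 and 3 without KO library 3. It was 1 without WT library 1, 5 without WT library 2 (*Myh4* in place of *Myh3*) and 2 without WT library 3. Of all genes tested on TPM, 20.2% were called, 18.1% with the pseudocount of 0.1, 3.87% with no filter, and 27.4%, 13.7%, 12.5%, 4.19%, 11.4% and 7.65% without those libraries in that order. Calls in the other lists numbered 21, and were 28 with DESeq2 and 31 with no filter. They ran from 9 (without WT library 1 or WT library 3) to 34 (without KO library 1) when 1 library was left out. Calls over all genes moved the same way, from 3361 to 933 and 1288 without WT library 1 and WT library 3. They numbered 4712 without KO library 1 and 4149 with DESeq2. With no filter they rose to 4538, but 30252 genes were tested in place of 14828. As a share of genes tested, they fell there from 22.7% to 15.0%. Scaling by library totals alone raised the median log2 fold change of all genes by 0.12 and cut the share of calls that were lower in KO from 46.6% to 33.8%. The log2 ratio of the summed TPM was -1.27, and it ran from -1.97 (without KO library 1) to -0.95 when 1 library was left out. *Myh10*, at -0.20, ran from -0.33 (without WT library 3) to 0.014 (without WT library 2), and did not pass the test in either. The causes were not tested. With the replicate number as a block, 4 members were called on counts (*Myh8*, *Myh7*, *Myh6*, *Myh7b*) and 6 on TPM (*Myh4* gained). Calls over all tested genes fell with the block, from 22.7% to 17.0% on counts and from 20.2% to 17.9% on TPM. However, same-numbered KO and WT libraries deviated together with r = 0.163, -0.122 and -0.050. Not every library correlated best with its own number, so the number does not pair them. Low counts limit the microRNA genes, *Mhrt* and the other small genes inside the loci.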
